A study of Mus musculus with 30 samples.

Results

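The genes of the proteasome, the protease that breaks down ubiquitin-tagged proteins, were measured after treatment with MTP10-HDL or, as control, phosphate-buffered saline (PBS) in 2 sorted mouse bone marrow populations. Members were the protein-coding rows of the deposited count tables whose symbol starts with Psma, Psmb, Psmc, Psmd, Psme, Psmf or Psmg and a digit, without the immunoproteasome genes Psmb8, Psmb9 and Psmb10. This gave 47 of 55471 rows: 16 genes of the 20S core, 6 ATPases of the 19S cap, 11 other cap subunits, 5 activators and inhibitors, 7 assembly chaperones and 2 genes that meet the name rule without being subunits. Those last 2 are Psmc3ip, a meiotic recombination factor, and Psme2b, a near-identical copy of Psme2.

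All mice were C57BL/6, of an age not given in the sources used here, and each RNA sample pooled cells of 4 mice, so p-values measure the spread between pools. Hematopoietic stem cells (HSCs) gave 6 MTP10-HDL libraries and 7 PBS libraries. Multipotent progenitors (MPPs) gave 3 MTP10-HDL libraries and 2 PBS libraries, the PBS ones numbered 2 and 3. MTP10-HDL is a lipoprotein nanoparticle carrying a muramyl tripeptide, a bacterial cell wall fragment that is sensed by Nod2. For MPPs the labels describe 3 injections in 5 days and killing on the following day, with the same text on the PBS samples, and no schedule is given for the HSC RNA samples in the sources used here.

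The 20S core is a barrel of alpha (Psma) and beta (Psmb) rings, and the proteolytic sites of Psmb5, Psmb6 and Psmb7 lie inside it. The 19S cap binds ubiquitin chains, removes them and unfolds the substrate with a ring of ATPases (Psmc), while Psme1 and Psme2 form an alternative cap that interferon induces. When proteasome activity falls short, the transcription factor Nfe2l1 raises the subunit genes together, and hematopoietic stem cells are known for low protein synthesis and tight protein quality control.

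HSC libraries held 5467455 to 7641976 counts with MTP10-HDL and 4064155 to 7879858 with PBS. MPP libraries held 17555267 to 32769369 counts with MTP10-HDL and 11252479 to 14691375 with PBS. Proteasome genes took 0.256% to 0.381% of HSC counts with MTP10-HDL and 0.218% to 0.328% with PBS, and 0.552% to 0.766% of MPP counts with MTP10-HDL and 0.433% to 0.534% with PBS. The kits differed between HSCs and MPPs, so these shares are not compared across the tables. Several HSC libraries stood apart: MTP10-HDL 2 and 3 and PBS 1 and 4 had the fewest detected genes, and MTP10-HDL 1 and 4 and PBS 2 and 3 had the highest ribosomal RNA shares. In MPPs, MTP10-HDL 2 stood apart for the proteasome genes themselves. All HSC and MPP markers were detected in their own libraries, and so were markers of other cells. In MPP libraries the 8 HSC markers summed to 903 to 1116 CPM (counts brought to the same library total) with MTP10-HDL and 1449 to 1630 CPM with PBS, and 7 of 8 had a fold change below 0. The 5 MPP markers summed to 2629 to 2699 CPM there with MTP10-HDL and 2177 to 2550 CPM with PBS, and 3 of 5 had a fold change above 0, so neither list overlapped between the groups. In HSC libraries both lists overlapped, with 1313 to 2029 CPM with MTP10-HDL and 1309 to 2590 CPM with PBS for HSC markers, and 778 to 1291 CPM with MTP10-HDL and 699 to 1367 CPM with PBS for MPP markers. Erythroblast markers summed to 53.5 to 119 CPM with MTP10-HDL and 118 to 408 with PBS in HSCs, and to 5.34 to 13.3 with MTP10-HDL and 38.04 to 73.6 with PBS in MPPs. B and plasma cell markers summed to 69.4 to 909 CPM with MTP10-HDL and 74.8 to 5497 with PBS in HSCs, and to 1247 to 3436 with MTP10-HDL and 3362 to 6715 with PBS in MPPs. Neutrophil markers summed to 535 to 4925 CPM with MTP10-HDL and 88.7 to 3396 with PBS in HSCs, and 8 of 8 markers had a fold change above 0. The part of these cells, HSCs and MPPs included, in the results below was not tested, and in bulk samples fewer cells of a type and less RNA per cell cannot be told apart.

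Promoters are shown because proteasome genes are known to be regulated together. Of the 47 genes, 39 had a RefSeq promoter of 250 bases before to 50 after the start (GRCm38.p6), and 3 motifs were searched on both strands. The antioxidant response element core TGACNNNGC, which Nfe2l1 and Nfe2l2 bind, was found in 6 of these 39 genes (15.4%), against 13.99% of all 27025 genes with a promoter. The genes were Psmb5, Psmb6, Psmc6, Psmd12, Psmd9 and Psme4. The windows of the first 5 follow, read on the gene's own strand with the match in capitals. In Psmc6 and Psmd12 it lies on the opposite strand, so the capitals read GC, 3 bases, GTCA.
Psmb5 ARE match, chr14:54618010-54618066, minus strand: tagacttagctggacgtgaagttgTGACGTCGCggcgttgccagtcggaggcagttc
Psmb6 ARE match, chr11:70525324-70525356, plus strand: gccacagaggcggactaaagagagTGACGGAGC
Psmc6 ARE match, chr14:45329574-45329629, plus strand: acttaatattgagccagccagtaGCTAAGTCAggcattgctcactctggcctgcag
Psmd12 ARE match, chr11:107479278-107479313, plus strand: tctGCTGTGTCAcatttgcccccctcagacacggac
Psmd9 ARE match, chr5:123228135-123228189, plus strand: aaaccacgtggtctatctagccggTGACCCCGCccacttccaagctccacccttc

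The interferon-stimulated response element core, GAAA then any 2 bases then GAAA, was found in 5 of the 39 genes (12.8%), against 3.99% of all genes. They were Psme1, Psmb3, Psmd4, Psmd9 and Psmg4, and the first 4 are shown with the match in capitals, which reads TTTC, 2 bases, TTTC where it lies on the opposite strand. The Psme1 match lies just downstream of its start.
Psme1 ISRE match, chr14:55578493-55578522, plus strand: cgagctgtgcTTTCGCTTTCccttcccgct
Psmb3 ISRE match, chr11:97703247-97703304, plus strand: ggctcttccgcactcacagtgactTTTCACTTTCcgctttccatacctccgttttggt
Psmd4 ISRE match, chr3:95042661-95042718, minus strand: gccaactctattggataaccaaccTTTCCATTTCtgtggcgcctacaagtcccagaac
Psmd9 ISRE match, chr5:123228007-123228064, plus strand: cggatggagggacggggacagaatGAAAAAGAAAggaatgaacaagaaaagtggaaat

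The CCAAT box, bound by NF-Y, was found in 14 of the 39 genes (35.9%), against 41.1% of all genes. Psma1, the gene with the smallest p in HSCs, has 2 of them, in capitals, 1 of which reads ATTGG because it lies on the opposite strand.
Psma1 promoter, chr7:114276117-114276366, minus strand: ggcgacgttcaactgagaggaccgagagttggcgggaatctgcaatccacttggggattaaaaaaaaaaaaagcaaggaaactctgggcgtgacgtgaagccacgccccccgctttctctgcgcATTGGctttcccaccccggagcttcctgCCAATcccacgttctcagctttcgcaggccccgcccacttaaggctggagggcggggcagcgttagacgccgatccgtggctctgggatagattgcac
A match describes the letters of these windows and does not show that a factor binds there.

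In HSCs, proteasome genes leaned higher with MTP10-HDL, by a small amount and without a gene passing the false discovery rate (FDR) threshold of 0.05. Summed over all members, expression was 3147 ± 335 CPM with MTP10-HDL (SD, n = 6) and 2767 ± 535 CPM with PBS (SD, n = 7). MTP10-HDL libraries ranged from 2704 to 3635 CPM and PBS libraries from 2216 to 3705 CPM, so the groups overlapped, and the highest library of all was PBS 1. By edgeR's quasi-likelihood test, 46 members were tested, and 39 had a fold change above 0, a direction shared by 47.7% of all 16631 genes tested. The median log2 fold change of the members was 0.17, beside -0.02 over all genes. No member passed the FDR threshold with edgeR, DESeq2 or limma voom, where edgeR and voom called 0 of all genes and DESeq2 called 104 (0.606%). At an unadjusted p under 0.05, edgeR called 4 members higher and 0 lower, against 4.36% of all genes higher and 4.47% lower. DESeq2 called 4 members higher at that threshold, against 1.64% of all 47787 genes with a fold change there. Those genes include low-count ones that edgeR left out, and 17174 of them had an adjusted p. The 1.64% can therefore understate the share among genes expressed like the members, and is not comparable with edgeR's 4.36%. Voom called 5 members higher, against 4.6% of all genes. None of the 46 members had all MTP10-HDL libraries above all PBS libraries, a pattern seen in 0.174% of all genes.

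**Figure D1:**
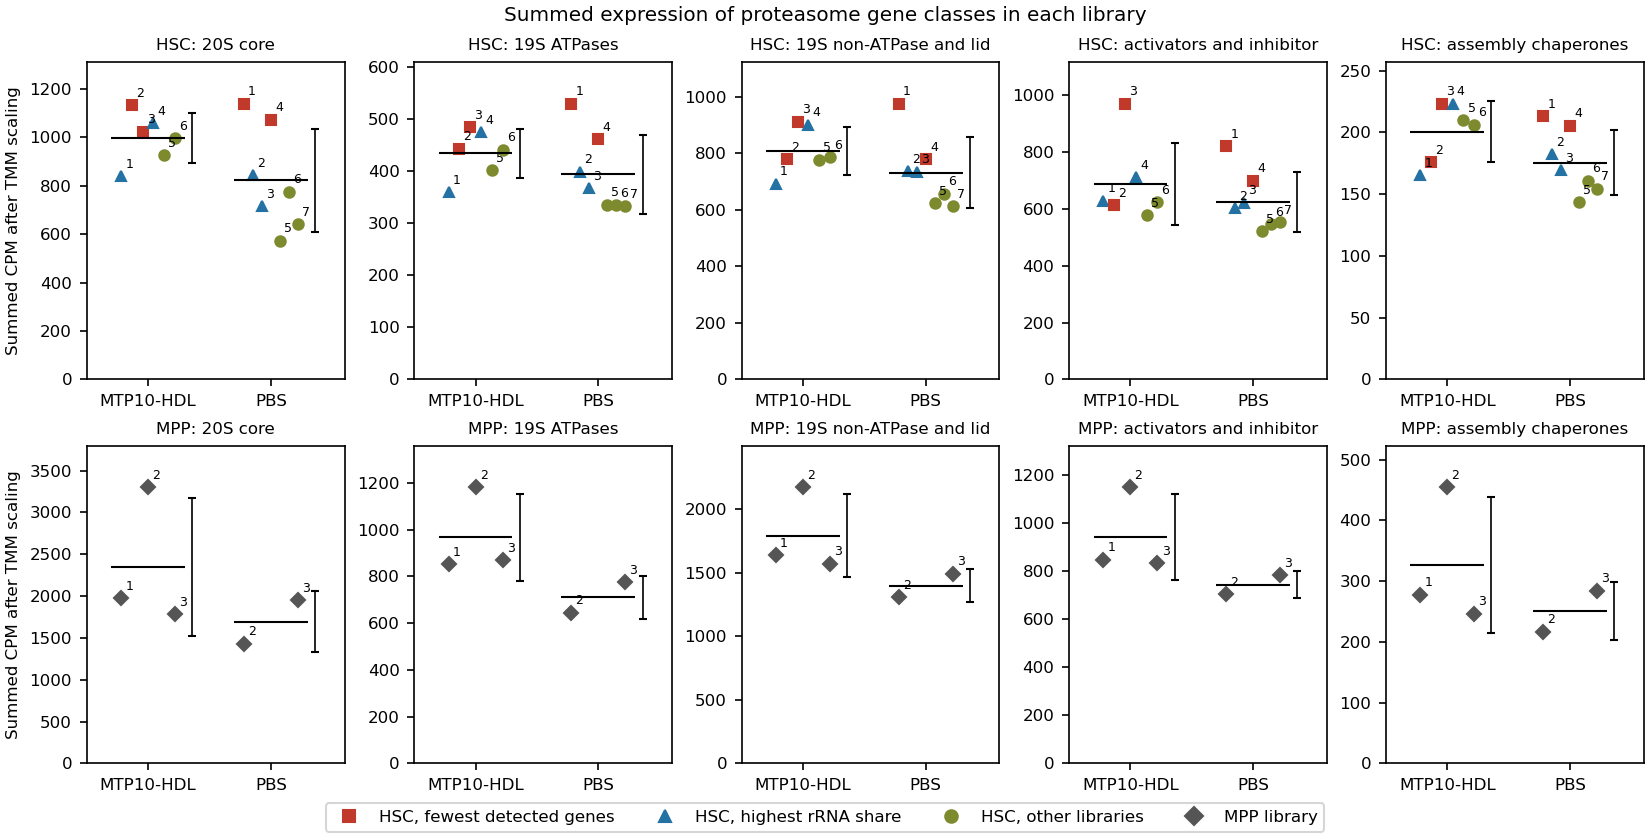
Summed CPM after TMM scaling (y axis) of 5 proteasome gene classes in each library, HSCs above and MPPs below, with MTP10-HDL left of PBS; numbers are library numbers, lines are means and bars are SDs. In HSCs the groups overlap in every class and PBS 1 and 4 sit with the MTP10-HDL libraries, and in MPPs MTP10-HDL 2 is the highest library of every class, at 3299 CPM for the 20S core.

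The direction of the members in HSCs differed between the sets of libraries that stood apart. Among the 4 libraries with the fewest detected genes, 16 of 46 members were higher in the mean with MTP10-HDL, with a median log2 ratio of -0.09. Among the 4 with the highest ribosomal RNA share, 39 were higher with a median of 0.19, and among the remaining 2 MTP10-HDL and 3 PBS libraries, 40 were higher with a median of 0.36. These sets hold 2 or 3 libraries a group, and their difference was not tested. The share over all genes was not computed within the sets, so a shift of all genes there cannot be told apart. With the set as a term in the edgeR fit, 39 members were higher, against 49.1% of all genes. The median was 0.16 and the lowest adjusted p of a member was 0.18. Without PBS 5 and 7, the libraries of lowest total, 33 were higher with a median of 0.07, against 49.5% of all genes higher. Without the 4 libraries with the fewest detected genes, 45 of 47 were higher with a median of 0.33. That last fit put 50.3% of all genes above 0 and called 13 members higher at an unadjusted p under 0.05, against 6.44% of all 17802 genes. PBS 1 alone was the highest library for 12 of 46 members (26.1%, against 8.05% of all genes), and PBS 7 the lowest for 13 (28.3%, against 8.0%).

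In MPPs, proteasome genes were higher with MTP10-HDL for 43 of 46 members, against 52% of all 15449 genes, with a median log2 fold change of 0.41 beside 0.02 over all genes. Their summed expression was 5616, 8300 and 5330 CPM in MTP10-HDL libraries 1 to 3, and 4328 and 5313 CPM in PBS libraries 2 and 3. All 3 MTP10-HDL libraries lay above both PBS libraries, but MTP10-HDL 3 and PBS 3 were close, and MTP10-HDL 2 was far above the rest. That library was the highest of the 5 for 40 of 46 members (87.0%, against 31.4% of all genes), and PBS 2 was the lowest for 31 (67.4%, against 22.1%). Without MTP10-HDL 2, 36 members were higher, against 49.2% of all genes, and the median was 0.19. Without PBS 3 the median was 0.59. Immunoglobulin genes took 2.76% to 4.26% of counts with MTP10-HDL and 6.20% to 12.5% with PBS, and ribosomal RNA took 0.508% to 0.915% with MTP10-HDL and 1.26% to 1.47% with PBS. Their part in the difference was not tested.

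No member passed the FDR threshold in MPPs with edgeR, DESeq2 or voom. Over all genes edgeR and voom called 0 and DESeq2 called 163 (1.05%). At an unadjusted p under 0.05, edgeR called 1 member higher (Psmd6) and 0 lower, against 2.17% of all genes higher and 4.06% lower. DESeq2 called 5 members higher, against 1.51% of all 26208 genes with a fold change there. Those genes also include low-count ones, and 15532 had an adjusted p, so 1.51% can understate the share among genes expressed like the members. Voom called 2 higher, against 1.66% of all genes. All MTP10-HDL libraries lay above both PBS libraries for 18 of 46 members, against 12% of all genes. They were all 6 ATPases, 7 of 11 other cap subunits, 4 of 15 core genes tested and Psmc3ip, and none of the chaperones. One member, Psmf1, had all MTP10-HDL libraries below PBS, against 12.3% of all genes.

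**Figure D2:**
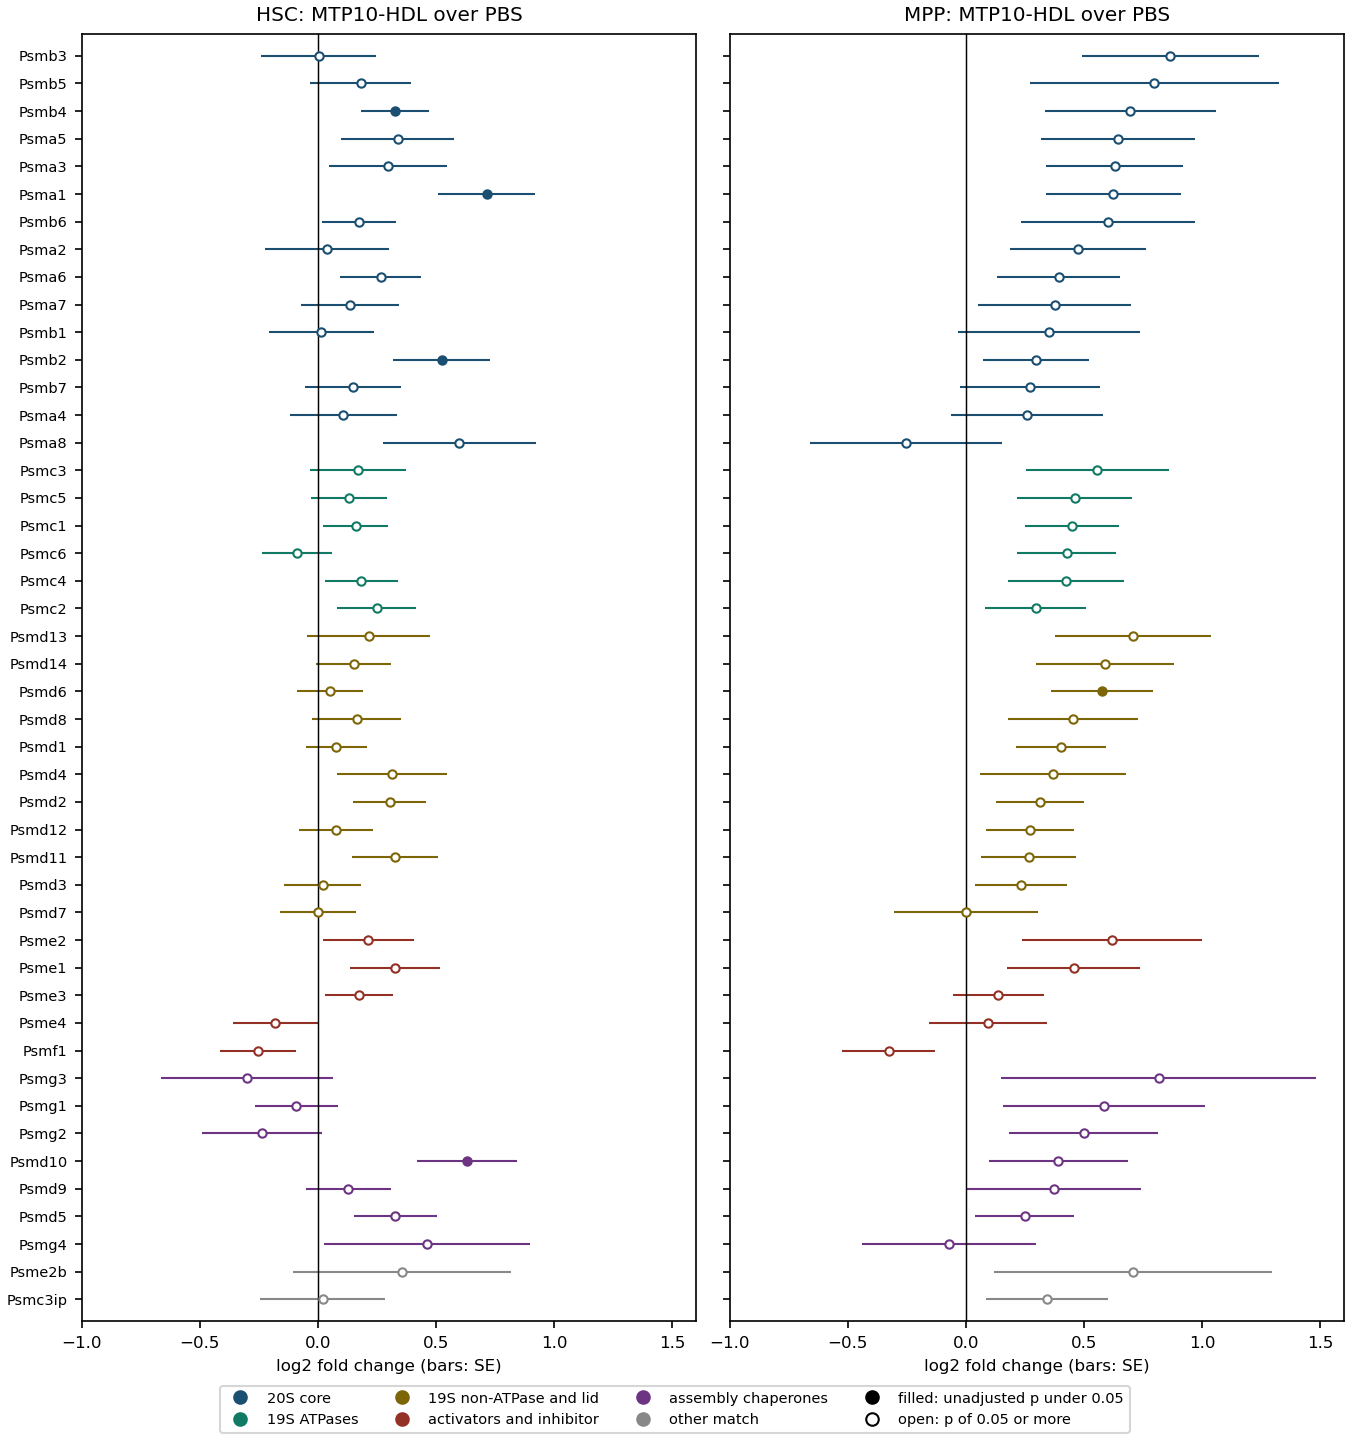
Log2 fold change of MTP10-HDL over PBS (x axis, bars are SEs) for the 46 members tested, by class, in HSCs (left) and MPPs (right); filled points have an unadjusted p under 0.05. Most points lie above 0 in both panels, with 39 in HSCs and 43 in MPPs, and Psmf1 lies below 0 in both.

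The 20S core had a median log2 fold change of 0.18 in HSCs (15 of 15 tested higher) and 0.48 in MPPs (14 of 15 higher). Its summed level in HSCs was 995 ± 102 CPM with MTP10-HDL (SD, n = 6) and 822 ± 213 CPM with PBS (SD, n = 7). In MPPs it was 1976, 3299 and 1785 CPM with MTP10-HDL and 1433 and 1952 CPM with PBS, so the groups overlapped. Psmb11, the subunit of the thymus proteasome, was not tested: it had 0 counts in all 5 MPP libraries, which allows up to 3 counts in each, and 0.125 to 3.96 CPM in HSC libraries.

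Psma1, an alpha ring subunit, had the smallest p of all members in HSCs. Its expression ranged over 88.4, 118 and 177 CPM (lowest, median and highest) with MTP10-HDL and 53.7, 75.1 and 104 CPM with PBS. The groups overlapped at the lowest MTP10-HDL library, and the other 5 MTP10-HDL libraries lay above every PBS library. For MTP10-HDL 4 the margin was narrow, at 104.9 CPM against 104.2 CPM in PBS 1. The log2 fold change was 0.72 (SE 0.21, unadjusted p = 0.0029), and the adjusted p of edgeR's quasi-likelihood test was 0.35. The log2 ratio of the means was 0.73 among the libraries with the fewest detected genes, 0.59 among those with the highest ribosomal RNA share and 0.74 among the others, where the member median was -0.09, 0.19 and 0.36. In MPPs, Psma1 had 253, 382 and 223 CPM with MTP10-HDL and 163 and 208 CPM with PBS, with no overlap and a log2 fold change of 0.62 (adjusted p = 0.81, edgeR).

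The beta ring subunits Psmb2 and Psmb4 were the other core genes with an unadjusted p under 0.05 in HSCs. Psmb2 had 77.6, 113 and 129 CPM (lowest, median and highest) with MTP10-HDL and 46.7, 73.5 and 116 CPM with PBS. Its log2 fold change was 0.52 (SE 0.21, adjusted p = 0.50, edgeR), with overlap. Psmb4 had 96.3, 110.3 and 124 CPM with MTP10-HDL and 62.7, 87.8 and 116 CPM with PBS, with a log2 fold change of 0.33 (SE 0.15, adjusted p = 0.55, edgeR). PBS 1 was the highest PBS library for both genes, at 116 CPM, and the groups overlapped. The log2 ratio of the means differed between the library sets. Among the libraries with the fewest detected genes it was 0.25 for Psmb2 and 0.12 for Psmb4. It was 0.29 and 0.22 among those with the highest ribosomal RNA share, and 0.96 and 0.55 among the others. In MPPs, Psmb2 had 143, 180.5 and 141 CPM with MTP10-HDL and 109.6 and 142 CPM with PBS, which overlapped, while Psmb4 had 139, 273 and 132.1 CPM with MTP10-HDL and 92.1 and 131.8 CPM with PBS, with no overlap by a narrow margin.

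Psmb5, Psmb6 and Psmb7 carry the chymotrypsin-like, caspase-like and trypsin-like activities of the constitutive core. Psmb5 had 14.2, 18.8 and 23.1 CPM (lowest, median and highest) in HSCs with MTP10-HDL and 11.4, 16.0 and 26.1 CPM with PBS. Psmb6 had 42.5, 52.2 and 65.6 CPM with MTP10-HDL and 37.2, 45.8 and 61.2 CPM with PBS, and Psmb7 had 18.1, 27.1 and 43.1 CPM with MTP10-HDL and 20.3, 26.2 and 32.2 CPM with PBS. All of them overlapped widely, with log2 fold changes of 0.18 for Psmb5, 0.17 for Psmb6 and 0.15 for Psmb7 (adjusted p of 0.81, 0.75 and 0.84, edgeR), the last being -0.0068 without MTP10-HDL 4. In MPPs, Psmb5 had 28.4, 80.4 and 25.6 CPM with MTP10-HDL and 19.3 and 32.3 CPM with PBS. Psmb6 had 133, 282 and 130.5 CPM with MTP10-HDL and 108 and 132 CPM with PBS, and Psmb7 had 58.5, 93.2 and 51.6 CPM with MTP10-HDL and 49.5 and 62.7 CPM with PBS. In each of the 3 genes MTP10-HDL 2 was the high library and the other MTP10-HDL libraries lay within or near the PBS range. The log2 fold changes were 0.80 (SE 0.53), 0.60 (SE 0.37) and 0.27 (SE 0.30) for Psmb5, Psmb6 and Psmb7, and the last was -0.03 without MTP10-HDL 2.

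Psmb3, a structural beta subunit, and Psma3, an alpha subunit, were among the 5 members of smallest p in MPPs. Psmb3 had 70.5, 126 and 53.3 CPM with MTP10-HDL and 39.7 and 51.8 CPM with PBS, for a log2 fold change of 0.87 (SE 0.37, adjusted p = 0.80, edgeR). Psma3 had 115, 167 and 94.5 CPM with MTP10-HDL and 69.6 and 92.6 CPM with PBS, for a log2 fold change of 0.63 (SE 0.29, adjusted p = 0.81, edgeR). Neither overlapped, and in both the lowest MTP10-HDL library lay just above PBS 3. In HSCs, Psma3 overlapped with a log2 fold change of 0.30 (SE 0.25). Psma8, an alpha subunit known from testis, had 5.17 to 20.9 CPM in HSCs with MTP10-HDL and 4.41 to 9.42 CPM with PBS, and was the core gene below 0 in MPPs, with 4.51 to 5.42 CPM with MTP10-HDL and 4.42 to 7.69 CPM with PBS.

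**Figure D3:**
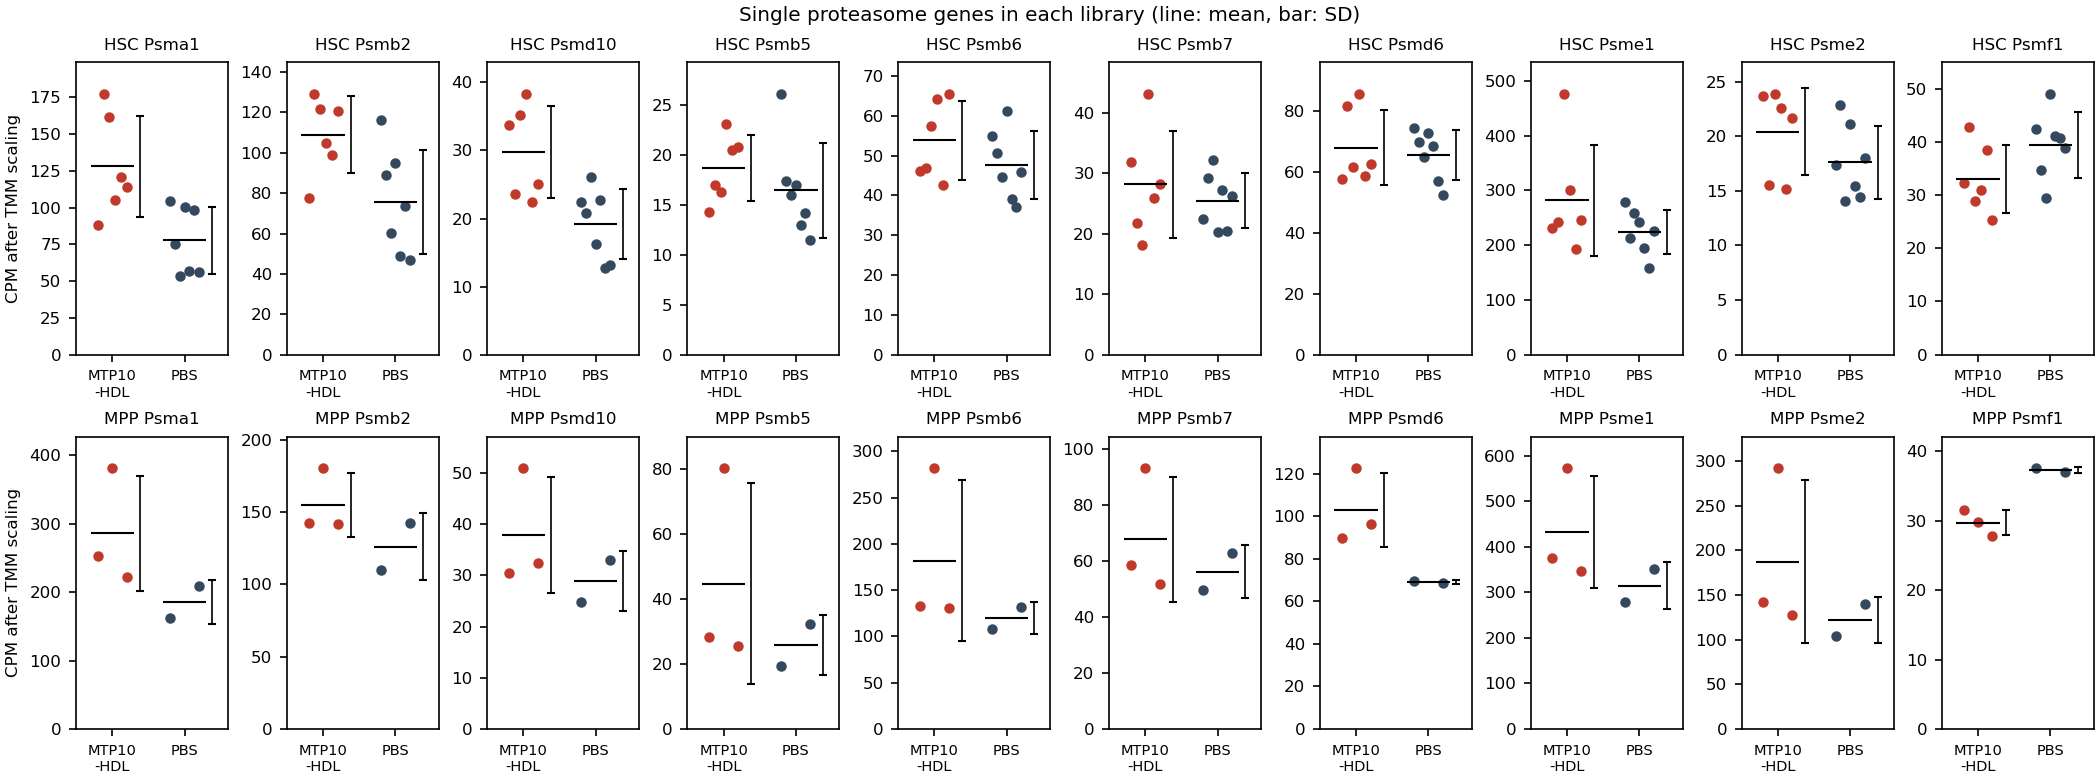
CPM after TMM scaling (y axis, from 0) of 10 proteasome genes in each library, HSCs above and MPPs below, with MTP10-HDL left of PBS; lines are means and bars are SDs. In HSCs only the lowest Psma1 library with MTP10-HDL, at 88.4 CPM, lies inside the PBS range, whereas in MPPs 1 high MTP10-HDL library (2) accounts for the upper point of most genes, and Psmf1 is the only one of these genes that lies below PBS in all MTP10-HDL libraries.

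The immunoproteasome subunits Psmb8, Psmb9 and Psmb10 replace Psmb5, Psmb6 and Psmb7 during interferon signalling. The ratio of each pair shows whether their RNA balance shifted, while the proteins in the core were not measured. Log2 ratios of Psmb8 to Psmb5 in HSCs were 2.12, 2.51 and 3.20 (lowest, median and highest) with MTP10-HDL and 2.10, 2.40 and 2.76 with PBS. For Psmb9 to Psmb6 they were 1.22, 1.88 and 2.26 with MTP10-HDL and 0.96, 1.52 and 2.05 with PBS, and for Psmb10 to Psmb7 -0.29, 0.24 and 1.07 with MTP10-HDL and -0.99, -0.31 and 0.86 with PBS. The mean differences were 0.23, 0.29 and 0.36 (2-sided exact permutation p = 0.22, 0.22 and 0.31 over 1716 arrangements). With 1 library left out they ran from 0.11 to 0.33, 0.19 to 0.40 and 0.20 to 0.51, with p between 0.071 and 0.57. Without MTP10-HDL 3 the first was 0.11 and the third 0.20, and without PBS 5 the third was also 0.20. In MPPs, Psmb8 to Psmb5 was 3.37, 3.13 and 3.22 with MTP10-HDL and 3.48 and 3.23 with PBS, and the differences of the 3 pairs were -0.12, -0.08 and 0.11 (exact permutation p = 0.4, 0.6 and 0.9). With 10 arrangements the smallest p in MPPs is 0.1. Adjusted over the 6 tests, every p was 0.60 or more, and no shift of these RNA ratios was detectable with these numbers of libraries.

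**Figure D4:**
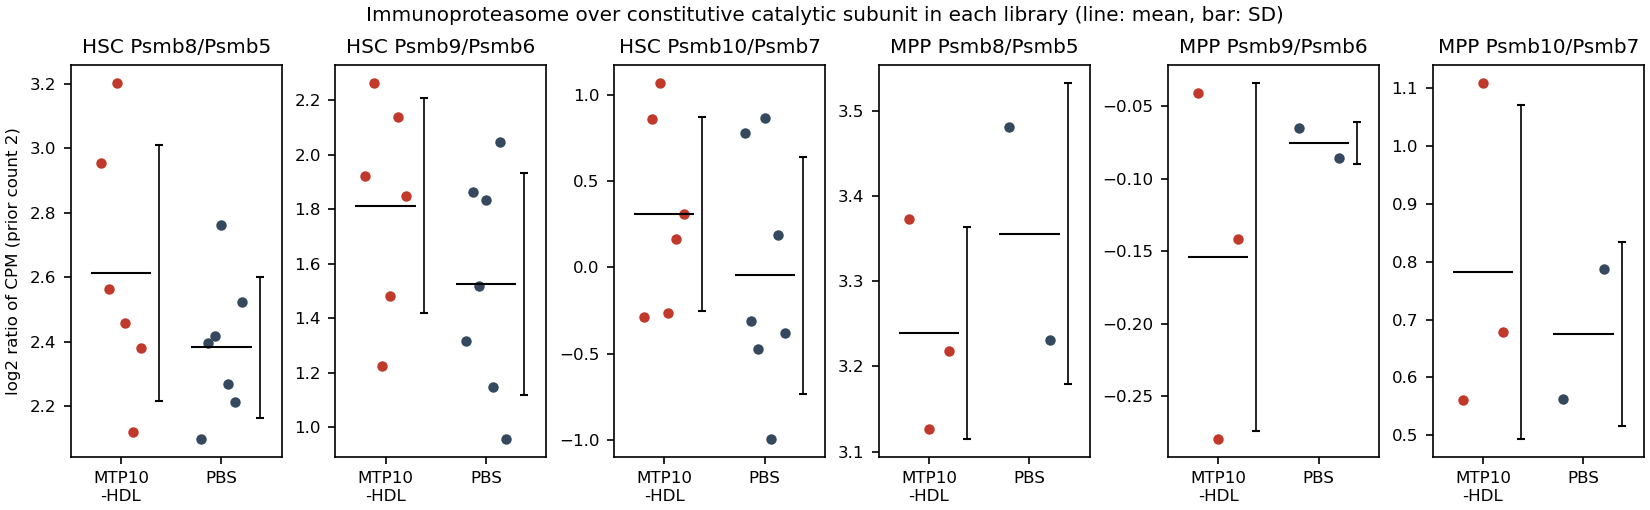
Log2 ratio of CPM of an immunoproteasome subunit over its constitutive counterpart (y axis, prior count 2, with a scale of its own in each panel) in each library, with MTP10-HDL left of PBS; lines are means and bars are SDs. The groups overlap in all 3 HSC pairs, and the MPP differences lie between -0.12 and 0.11.

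The ATPase ring Psmc1 to Psmc6 unfolds substrates and opens the gate of the core. Its median log2 fold change was 0.16 in HSCs (5 of 6 higher) and 0.44 in MPPs (6 of 6 higher). Summed levels in MPPs were 851, 1181 and 868 CPM with MTP10-HDL and 644 and 776 CPM with PBS, so no library overlapped. In HSCs they were 359 to 484 CPM with MTP10-HDL and 332 to 529 CPM with PBS, which overlapped. Psmc1 had 166, 184 and 177 CPM in MPPs with MTP10-HDL and 115 and 142 CPM with PBS, the least spread of the MTP10-HDL libraries among the ATPases. Its log2 fold change was 0.45 (SE 0.20, adjusted p = 0.80, edgeR), and 0.16 in HSCs. Within MPPs the log2 fold changes of the ring ran from 0.30 for Psmc2, which had 121, 154 and 115 CPM with MTP10-HDL and 101 and 111 CPM with PBS, to 0.56 for Psmc3, which had 179, 314 and 185 CPM with MTP10-HDL and 133 and 174 CPM with PBS. In HSCs they ran from -0.09 for Psmc6, or 0.0071 without PBS 1, to 0.25 for Psmc2. Psmc6 had 51.9, 55.6 and 79.1 CPM (lowest, median and highest) in HSCs with MTP10-HDL and 49.8, 60.9 and 84.9 CPM with PBS, so the groups overlapped across nearly the whole range.

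Among the other cap subunits, Psmd2 is part of the scaffold at the base, Psmd4 is a ubiquitin receptor, and Psmd14 is the enzyme that cuts off the ubiquitin chain. The class had a median log2 fold change of 0.15 in HSCs (10 of 11 higher) and 0.37 in MPPs (11 of 11 higher). Summed levels in MPPs were 1637, 2171 and 1570.3 CPM with MTP10-HDL and 1305 and 1493 CPM with PBS, with no overlap. Psmd6, a lid subunit, had 89.7, 123 and 96.6 CPM in MPPs with MTP10-HDL and 69.7 and 68.5 CPM with PBS. The groups did not overlap, but the gap between them was smaller than the spread of the MTP10-HDL libraries. The log2 fold change was 0.58 (SE 0.22, unadjusted p = 0.030, adjusted p = 0.75, edgeR).

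Psmd2 showed no excess in MTP10-HDL 2: it had 243, 234 and 234 CPM in MPPs with MTP10-HDL and 194 and 188 CPM with PBS. Its log2 fold change was 0.32 (SE 0.19, adjusted p = 0.87, edgeR) with no overlap, and in HSCs it was 0.30 (SE 0.15, adjusted p = 0.57, edgeR), with 63.3, 70.6 and 84.1 CPM with MTP10-HDL and 41.8, 60.5 and 81.2 CPM with PBS. Psmd14 had 168, 244 and 147 CPM in MPPs with MTP10-HDL and 100.2 and 148 CPM with PBS, and Psmd4 had 118, 204 and 109 CPM with MTP10-HDL and 100.0 and 123 CPM with PBS. Both overlapped, since MTP10-HDL 3 lay below PBS 3. In HSCs, Psmd14 had 71.1, 89.8 and 94.8 CPM (lowest, median and highest) with MTP10-HDL and 59.9, 74.8 and 123 CPM with PBS. Psmd4 had 27.4, 41.7 and 49.2 CPM with MTP10-HDL and 17.4, 31.9 and 49.8 CPM with PBS, for a log2 fold change of 0.31 (SE 0.23, adjusted p = 0.69, edgeR).

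**Figure D5:**
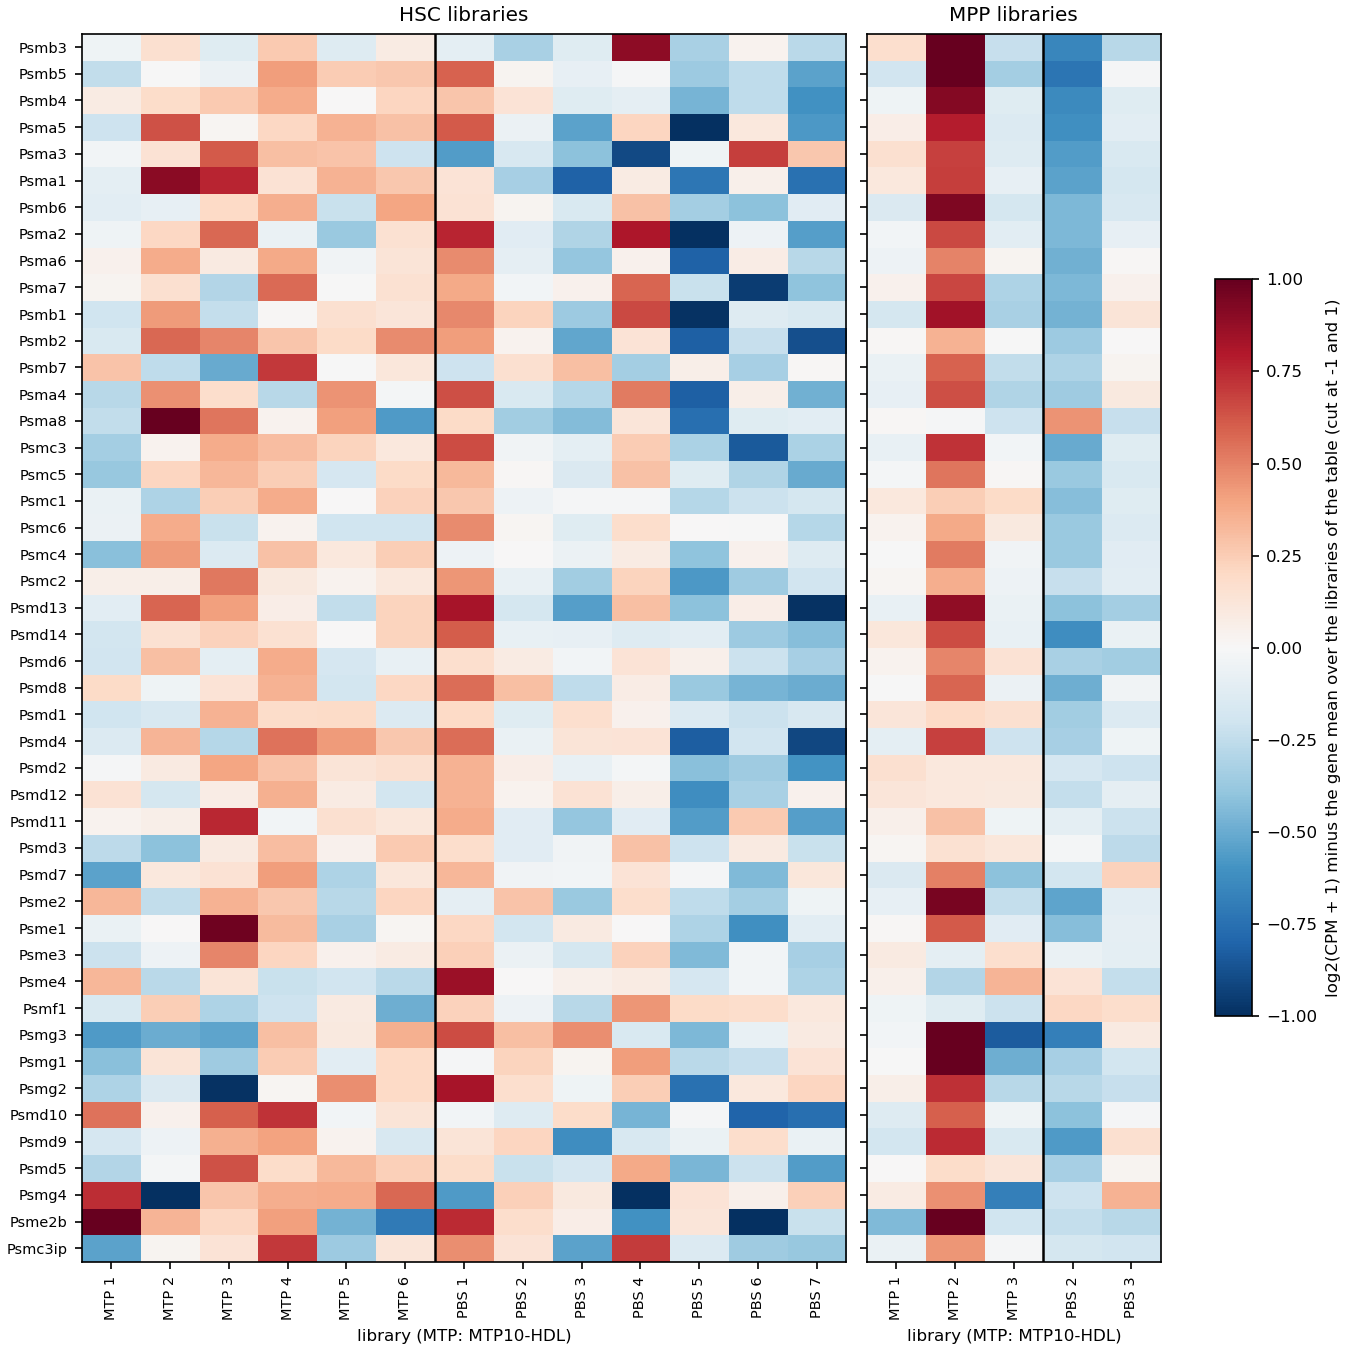
Log2(CPM + 1) of each member minus its mean over the libraries of the same table (colour, red above and blue below, cut at -1 and 1), with members in rows by class and libraries in columns, MTP10-HDL left of the black line and PBS right of it. MPP MTP10-HDL 2 is red for most rows and is the highest library for 40 of 46 members, and HSC PBS 5 and 7 are blue for many rows.

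Psme1 and Psme2 form the interferon-induced 11S activator, Psme3 forms a nuclear one, Psme4 (PA200) acts on histones, and Psmf1 (PI31) binds the core and was described as its inhibitor. The 5 genes had a median log2 fold change of 0.17 in HSCs and 0.14 in MPPs. Psme1 had 193, 244 and 477 CPM (lowest, median and highest) in HSCs with MTP10-HDL and 158, 225 and 279 CPM with PBS, and 376, 574 and 347 CPM in MPPs with MTP10-HDL against 279 and 351 CPM with PBS. The highest HSC value was MTP10-HDL 3 alone, and the log2 fold changes were 0.33 in HSCs (SE 0.19, adjusted p = 0.62, edgeR) and 0.46 in MPPs (SE 0.28, adjusted p = 0.87, edgeR). Psme2 lies close to Psme1 on chromosome 14, at 55587440 to 55591101 against 55578494 to 55581527 (GRCm38.p6), and had 15.2, 22.1 and 23.9 CPM in HSCs with MTP10-HDL and 14.1, 17.4 and 22.9 CPM with PBS. In MPPs it had 142, 292 and 128 CPM with MTP10-HDL and 104 and 140.1 CPM with PBS, which overlapped, and its log2 fold change was 0.62 (SE 0.38). Psme2 values are uncertain because Psme2b can share reads with it: per 100 Psme2 counts, Psme2b had 7.78 to 40.2 in HSC libraries and 3.09 to 5.27 in MPP libraries.

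Psme3 had 187, 227 and 305 CPM (lowest, median and highest) in HSCs with MTP10-HDL and 159.7, 208 and 256 CPM with PBS. In MPPs it had 205, 179.6 and 216 CPM with MTP10-HDL and 184 and 180.1 CPM with PBS, where MTP10-HDL 2 was the lowest library. Psme4 had 102, 107 and 155 CPM in HSCs with MTP10-HDL and 99.5, 123 and 224 CPM with PBS, for a log2 fold change of -0.18 (SE 0.18) that became 0.0037 without PBS 1. In MPPs it had 94.4, 74.3 and 115 CPM with MTP10-HDL and 100.2 and 77.1 CPM with PBS, and the groups interleaved. Psmf1 was the member whose fold change was lowest in MPPs, with 31.5, 29.9 and 27.8 CPM with MTP10-HDL and 37.6 and 37.0 CPM with PBS. Its log2 fold change was -0.33 in MPPs (SE 0.20, adjusted p = 0.87, edgeR) and -0.26 in HSCs (SE 0.16, adjusted p = 0.65, edgeR), where it had 25.3, 31.6 and 42.8 CPM with MTP10-HDL and 29.4, 40.7 and 49.1 CPM with PBS.

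The assembly chaperones Psmg1 to Psmg4 build the core, and Psmd5, Psmd9 and Psmd10 hold the ATPases before they join it. Their median log2 fold change was 0.13 in HSCs (4 of 7 higher) and 0.39 in MPPs (6 of 7 higher). Psmd10 (gankyrin, known as an oncoprotein in liver) had 22.5, 29.5 and 38.4 CPM (lowest, median and highest) in HSCs with MTP10-HDL and 12.7, 20.9 and 26.1 CPM with PBS. The groups overlapped between 22.5 and 26.1 CPM, and the log2 fold change was 0.63 (SE 0.21, unadjusted p = 0.0082, adjusted p = 0.42, edgeR). The log2 ratio of the means was 0.60, 0.62 and 0.55 in the libraries with the fewest detected genes, those with the highest ribosomal RNA share and the others. In MPPs, Psmd10 had 30.4, 51.0 and 32.4 CPM with MTP10-HDL and 24.8 and 33.1 CPM with PBS, which overlapped, for a log2 fold change of 0.39 (SE 0.29). Psmg1, Psmg2 and Psmg3 had fold changes below 0 in HSCs, with log2 values from -0.30 to -0.09, and above 0 in MPPs, with values from 0.50 to 0.82 and MTP10-HDL 2 as the highest library of each.

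The MPP response did not differ detectably from the HSC response for any member in a joint edgeR fit with 4 group means, where 47 members were tested and 0 passed the FDR threshold, against 1 of 24470 genes (0.00409%). At an unadjusted p under 0.05 it called 0 members, against 3.86% of all genes by edgeR. Voom called 2 members, and its share over all genes was not computed. Psmb11, with 0 counts in MPPs, entered that fit through its HSC counts and gives no difference. Of the 46 members with counts in both tables, 37 had an MPP minus HSC difference above 0, against 50.3% of all 19900 such genes. Their median was 0.30 on the log2 scale, beside 0.0041 over those genes, and it was 0.0093 without MPP MTP10-HDL 2, 0.17 without HSC PBS 1 and 0.19 without MPP PBS 2. Psmb3 had the smallest p, with a difference of 0.90 (SE 0.45, unadjusted p = 0.058, edgeR), followed by Psmd6 at 0.54 (SE 0.28) and Psmc6 at 0.54 (SE 0.29). Kits differed between the tables, so the difference assumes that a kit acts as a constant factor per gene.

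Of 30 other genes of the pathway, 29 were in the tables, with 0 past the FDR threshold by edgeR in either cell type. In HSCs 17 were higher and 12 lower, against 47.7% of all genes higher. In MPPs 20 were higher and 9 lower, against 52% of all genes higher. The median log2 fold change was 0.17 in HSCs and 0.41 in MPPs for the members, and 0.09 in HSCs and 0.08 in MPPs for these other genes. In HSCs, edgeR called 1 of these 29 genes higher and 2 lower at an unadjusted p under 0.05. Over all genes the shares were 4.36% higher and 4.47% lower. Among the pathway genes called were Uba1, the main ubiquitin-activating enzyme (log2 fold change 0.42, SE 0.11, adjusted p = 0.30, edgeR), and the thioredoxin-like cap partner Txnl1 (-0.33, SE 0.12). In MPPs edgeR called 0 higher and 1 lower, the proteasome activator Zfand5 (-0.50, SE 0.21), against 2.17% of all genes higher and 4.06% lower. The deubiquitinases Uchl5 (0.50, SE 0.22) and Usp14 (0.27, SE 0.19), which sit on the cap, had positive values in MPPs. Nfe2l1 itself had log2 fold changes of 0.10 in HSCs (SE 0.15) and -0.16 in MPPs (SE 0.19), and the core maturation factor Pomp 0.23 (SE 0.15) and 0.45 (SE 0.36).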

How the data were processed

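RNA was sequenced from sorted HSCs and MPPs, and the authors deposited raw read counts per Ensembl gene, 1 table a cell type, in which every value is a whole number. Per the submitters' processing notes, the HSC data used CASAVA 1.8.2 with STAR 2.5.2b, and the MPP data STAR 2.7.2a, DESeq2 1.24 and R 3.6.1, on mm10. How reads were counted, on which annotation and with which strand setting is not given in the sources used here, so reads of overlapping or near-identical genes may be split. Per the labels' protocols, HSC libraries were amplified and MPP libraries poly-A selected, so each table was fitted apart.

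From the counts, R 4.3.3 with edgeR 4.0.16 (filterByExpr, TMM scaling, quasi-likelihood F test), DESeq2 1.42.0 and limma 3.58.1 (voom) tested MTP10-HDL over PBS, with Benjamini-Hochberg adjustment over all genes tested. CPM are after TMM scaling, SEs are the log2 fold change over the root of F, and ratios use log2 CPM with a prior count of 2. The fit was checked on simulated counts. Of the columns with counts, 0 were left out, and the 12 accessibility samples were not analysed here. The HSC columns number PBS 1 to 7 where the labels end at 8, so PBS columns stand for their group, under the numbers of the table. Genes named were the catalytic subunits, the ATPases' extremes, Psmd14, Psmd4, Psmd2, the activators, Psmf1 and the 5 members of smallest p in each table, plus the 3 smallest p of the pathway genes, Nfe2l1 and Pomp. One of these pathway genes is not reported here. Other members were named for their position within a class after their values were seen. Members and lists were chosen with earlier results of these data known. Replicate numbers showed no clear pairing: correlations of same-numbered deviations ran from -0.19 to 0.19 in HSCs and from -0.17 to -0.03 in MPPs. They cannot exclude a pairing. Deviations of the 2 MPP PBS libraries mirror each other, and the HSC PBS columns are numbered otherwise than the labels. No 2 libraries of a group agreed within sampling noise. Alternatives were other scalings, tests and filters, protein-coding genes only, a replicate block and each library left out.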

Additional observations from a re-analysis of the deposited data

Results flagged for a closer look

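In HSCs, 58 groups of values were tested for a library far from the others, of which chance alone flags about 1 in 20, and 5 were found. Among PBS libraries, PBS 1 stood far above the rest for Psmb5 (26.1 CPM, next 17.4), Psmd14 (123 CPM, next 76.7) and Psme4 (224 CPM, next 131). Among MTP10-HDL libraries, MTP10-HDL 3 stood far above the rest for Psmc2 (119 CPM, next 87.9) and for the summed activators and inhibitor (969.5 CPM, next 712). Both libraries are among the 4 with the fewest detected genes. The part of that in these values was not tested.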

How the results depend on the processing

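No member passed the FDR threshold under any alternative run in HSCs, MPPs or the joint fit. Genes past it over the whole table numbered 104 in HSCs and 163 in MPPs with DESeq2, and 44 and 345 without the filter on low counts, with 0 by the edgeR test as reported. Leaving out 1 library gave 0 to 1 in HSCs and 0 to 17 in MPPs. In the joint fit they numbered 4 without the filter, 0 with protein-coding genes only and 0 to 2 with 1 library left out, beside 1. Members higher at an unadjusted p under 0.05 in HSCs numbered 2 to 12 with 1 library left out, beside 4. There were 12 without PBS 1 (6.19% of all genes higher) and 2 without MTP10-HDL 2 (3.74%). The library sets chosen after seeing the data gave 2 without PBS 5 and 7 (2.77% of all genes higher). They gave 13 without the 4 libraries with the fewest detected genes (6.44%). In MPPs members higher at that p numbered 5 with DESeq2 and 14 without the filter, beside 1. The shares over all genes there were 1.51% and 2.71%, of 26208 genes that include low-count ones. Members higher at that p numbered 2 with voom (1.66%) and 2 with protein-coding genes only (2.19%). Without MTP10-HDL 1, 2 and 3 they numbered 2, 1 and 10 (1.42%, 3.04% and 2.4%). With 1 library left out, the member median ran from 0.12 to 0.23 in HSCs, from 0.19 (without MTP10-HDL 2) to 0.59 in MPPs and from 0.0093 (without MPP MTP10-HDL 2) to 0.40 in the joint fit. DESeq2 put the median of all HSC genes at -0.23 and of the members at 0.16, and the fit without the filter at -0.15 and 0.22. Both all-gene medians are over 47787 genes, low-count ones included, so they are not comparable with the median over the 16631 genes of the main fit. Upper-quartile scaling, over those 16631 genes, put the medians of all genes and of the members at -0.09 and 0.12.

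With the replicate block, which pairs libraries by number only, genes past the threshold numbered 43 in MPPs and 0 in the joint fit. Members higher at an unadjusted p under 0.05 numbered 0 in MPPs (0.576% of all genes higher), and the member median was 0.13 in HSCs and 0.49 in MPPs. The block moved no other member count by over 1.5 times and turned the direction of no member median.

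Directions turned in few values. With 1 library left out, the MPP differences ran from -0.24 to 0.01 for Psmb8 to Psmb5 (0.0083 without PBS 2) and from -0.06 to 0.22 for Psmb10 to Psmb7 (-0.056 without MTP10-HDL 2, -0.0056 without PBS 2). With 1 library left out, Psmb7 ran from -0.0068 (without MTP10-HDL 4) to 0.25 in HSCs and from -0.029 (without MTP10-HDL 2) to 0.45 in MPPs. In HSCs, Psme4 ran from -0.27 to 0.0037 (without PBS 1) and Psmc6 from -0.18 to 0.0071 (without PBS 1), and without the 4 libraries with the fewest detected genes they stood at 0.057 and 0.0074. In MPPs, Psme4 ran from -0.080 (without PBS 3; -0.069 without MTP10-HDL 3) to 0.29. The cause was not tested. HSC fold changes of Psmb3 and Psmd6 stood near 0 and are neither given nor counted next. Of 933 values of single genes, 925 kept direction and side of the threshold, and 8 turned direction. None of these genes passed the threshold in the fits as reported, and many were named for a small p, so the count is no measure of stability. Depth limits the members of lowest level, such as Psmg3 with 2.57 CPM in its lowest HSC library.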
